A study of Mus musculus with 6 samples.

Results

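Potassium channels form a large family of ion channels in neurons. They were taken here as the 91 protein-coding genes of GENCODE mouse release 21 on chromosomes 1 to 19 whose symbol begins with Kcn and carries a number, of 20807 protein-coding genes on these chromosomes. The mark was H3K79me2, dimethylated lysine 79 of histone H3, whose peaks were called from ChIP-seq libraries (chromatin immunoprecipitation with sequencing) of the mouse neuroblastoma cell line N2a. Cells were transfected with the shControl plasmid pLKO.1-shCTR (CTR) or with pLKO.1-shNpm1, which targets Npm1 with a short hairpin RNA (NPM1 KD), and were harvested after 72 h, at 3 days in vitro. NPM1 KD cells were kept in 9.3 µg/ml puromycin from the day after transfection, and the labels do not say whether CTR cells were selected too. Each group had 2 H3K79me2 libraries from separate passages of the one cell line, and 1 pooled input per group with no peak list used here.

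DOT1L is the enzyme that places H3K79 methylation. The mark typically begins just downstream of a transcription start and fades into the gene body, and it is most often found on transcribed genes. Potassium channels let K+ leave the cell and so set the resting potential, end the action potential and space the spikes of a train. No RNA was measured in these libraries, so a marked gene is described here by its chromatin alone, and peak lists cannot check the level of Npm1.

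Most potassium channel genes had no called H3K79me2 peak in N2a cells. Each library had a broad list, in which nearby enriched stretches were joined into domains, and a narrow list of shorter peaks. A gene was called marked when a broad peak overlapped the gene or its upstream 3 kb in all 4 libraries. This held for 24 of the 91 genes (26.4%), against 52.5% of all protein-coding genes. A further 5 genes had a broad peak in 1 to 3 libraries, 3 had narrow peaks only, and 59 (64.8%) had no peak of either kind in any library, against 43.4% of all genes. Narrow lists gave a peak in all 4 libraries for 28 of the 91 genes (30.8%), against 52.8% of all genes. Shares of genes describe this annotation and carry no sampling test.

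Peak calls were closer to the gene start in some members than in others. A broad peak lay over an annotated start of the gene itself in all 4 libraries for 14 of 91 genes (15.4%), against 38.5% of all genes. Within 1 kb of an own start the count was 22 (24.2%), against 49.4% of all genes. Kcnq1 and Kcnu1 were the marked genes without a peak that close to an own start.

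The share was below that of all genes in each class of gene length. Among windows of up to 20 kb, 5 of 32 potassium channel genes were marked (15.6%), against 41.8% of all genes of that size. Between 20 and 100 kb the count was 12 of 35 (34.3%, against 64.0%), and above 100 kb it was 7 of 24 (29.2%, against 58.4%). Sodium and calcium channel genes, found by the symbols Scn and Cacn, were marked in 17 of 39 cases (43.6%). Glutamate and GABA receptor genes were marked in 10 of 44 cases (22.7%), a list whose symbol rule also takes the receptor-binding proteins Grip1, Grip2 and Grid2ip.

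The libraries carried the marks of the labelled line. Of 14 genes typical of neuroblastoma and noradrenergic cells, 12 were marked, among them Phox2a, Hand2, Gata3 and Mycn, whereas Dbh had no peak. None of the 16 marker genes of blood, liver, muscle, endothelium and glia on these chromosomes was marked in all 4 libraries, although Pecam1 had 161 to 246 bp of peak in 3 libraries. Lists differed in size, with 48764, 34845, 44228 and 46565 broad peaks in CTR 1, CTR 2, NPM1 KD 1 and NPM1 KD 2. The lowest background pileup solved from the narrow peaks, a relative measure of depth, was 11.9, 7.65, 8.99 and 11.8 in the same order (medians 14.1, 9.19, 10.7 and 14.5), so CTR 2 was the shallowest library. Where values of single libraries follow, library 1 of a group precedes library 2.

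**Figure D1:**
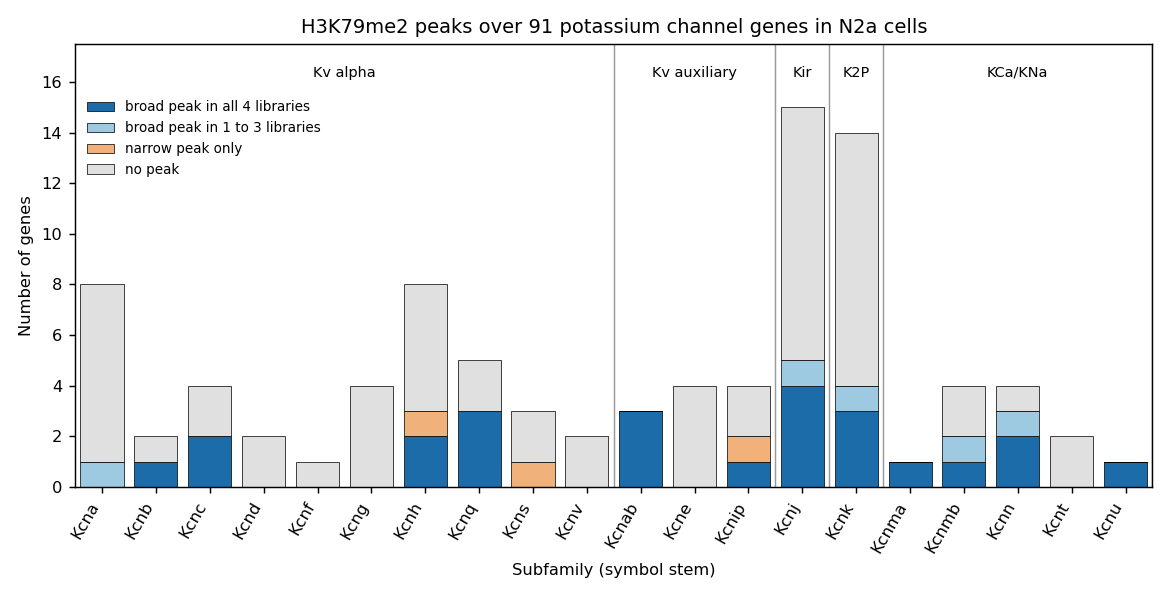
Number of potassium channel genes (y axis) in each subfamily (x axis, symbol stem), grouped by class and coloured by the libraries in which a peak lay over the gene body or 3 kb upstream. Dark blue marks the 24 genes with a broad peak in all 4 libraries, and grey marks the 59 genes with no peak, which include 7 of the 8 Kcna genes and all 4 Kcne genes.

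Voltage-gated (Kv) pore-forming and modifier subunits were marked in 8 of 39 cases. Among the marked genes were Kcnc1, a channel of fast-spiking cells, Kcnh2 (the ERG channel), Kcnh4, Kcnq1 and Kcnq5. None of the 8 Kcna (Kv1) genes and neither Kcnd2 nor Kcnd3, which encode the Kv4 channels of the dendritic A-type current, was marked. The modifier subunits, which form no channel alone, were also without a broad peak: Kcnf1, the 4 Kcng genes, the 3 Kcns genes and both Kcnv genes.

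Auxiliary Kv subunits were marked in 4 of 11 cases. All 3 Kcnab genes, which encode the cytoplasmic beta subunits of Kv1 channels, were marked, although no Kcna gene was. Kcnab3 was not marked when the upstream 3 kb was left out, and its strongest broad peak held the Cntrob and Trappc1 starts. Kcnip3, a calcium-binding protein of the KChIP group, was marked, and Kcnip1 and Kcnip2 had no peak. The single-span Kcne subunits had none in 4 of 4 cases.

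Inward rectifiers (Kir, Kcnj genes) were marked in 4 of 15 cases: Kcnj6, which encodes the G-protein-gated GIRK2, and Kcnj12, Kcnj13 and Kcnj14. The other G-protein-gated subunits, Kcnj3 and Kcnj5, had no peak, and Kcnj9 had a small broad peak in 3 libraries. No broad peak was found at Kcnj8 or Kcnj11, the pores of ATP-sensitive channels, or at their partners Abcc8 and Abcc9. Leak channels with 2 pore domains (K2P, Kcnk genes) were marked in 3 of 14 cases, namely Kcnk3 (TASK-1), Kcnk4 (TRAAK) and Kcnk5 (TASK-2).

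Calcium- and sodium-activated channels were marked in 5 of 12 cases. These were Kcnma1 (the BK pore), its beta subunit Kcnmb4, Kcnn2 and Kcnn3 (the SK2 and SK3 channels) and Kcnu1 (Slo3, known from sperm). The sodium-activated Kcnt1 and Kcnt2 had no peak. From a list of 16 other genes that work with potassium channels or carry related currents, 4 were marked: Dpp6, a partner of Kv4 channels, and the pacemaker channel genes Hcn2, Hcn3 and Hcn4. Of the others, Kcnrg had a broad peak in 2 libraries and Lgi1 in 1, and Nalcn, Dpp10 and 8 more had none. The mark on Dpp6 was short, with 963 to 2250 bp covered in a window of 913303 bp.

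**Figure D2:**
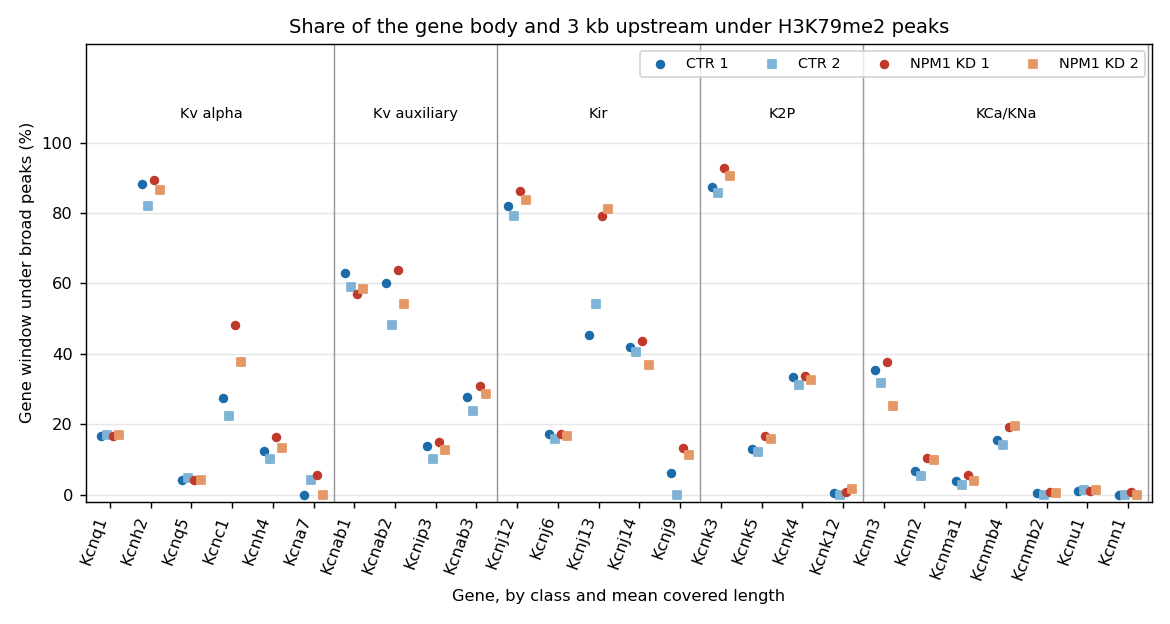
Share of each gene window (body plus 3 kb upstream, in %, y axis) under broad peaks in each of the 4 libraries (points) for 26 potassium channel genes with a broad peak in any library (x axis). Kcnk3, Kcnh2 and Kcnj12 lie above 75% in every library, whereas Kcna7, Kcnj9, Kcnk12, Kcnmb2 and Kcnn1 lie at 0 in at least 1 library.

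The median share under broad peaks was 32.6% (range 1.13% to 89.1%, 24 genes), against 50.9% for all 10915 marked genes, 25.3% for the 17 marked sodium and calcium channel genes and 23.0% for the 10 marked glutamate and GABA receptor genes. The fold of the strongest peak was ranked within its own list, and the median percentile was 82.8 for the 24 genes (57.2 to 97.0) and 90.3 for all marked genes, and it was 81.8 and 82.5 for the same 2 other lists. The uninterrupted domain from the marked start ran for a median of 10.2 kb in 22 genes, and also 10.2 kb in 10262 of all genes, with gaps of up to 1000 bp joined.

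Kcnk3, Kcnh2 and Kcnj12 were covered over more than 75% of their windows in every library. Kcnk3 (chr5:30588170-30625271, GRCm38, plus strand), a leak channel of the TASK group, had 35056 and 34367 bp under broad peaks in CTR and 37182 and 36298 bp in NPM1 KD. These were 85.7% to 92.7% of its window, and both NPM1 KD values lay above both CTR values. Kcnh2 (chr5:24319589-24351604, minus strand) had 30931 and 28694 bp in CTR and 31297 and 30277 bp in NPM1 KD, 81.9% to 89.4% of its window, with overlapping groups.

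Kcnj12 (chr11:61022564-61071131, plus strand), a strong inward rectifier, had 42287 and 40739 bp in CTR and 44512 and 43092 bp in NPM1 KD, up to 86.3% of its window. Both NPM1 KD values lay above both CTR values.

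The longest covered length belonged to an auxiliary subunit. Kcnab1 (chr3:65109384-65378223, plus strand) had 171002 and 160033 bp in CTR and 154862 and 158960 bp in NPM1 KD, or 57.0% to 62.9% of its window. It was the single member with both NPM1 KD values below both CTR values in the broad lists. The covered length was split into many peaks, the last of which, 24.1 kb long in CTR 1, began 259 kb from the gene start and ran past the 3′ end. The narrow peak at this end held the start of the neighbouring coding gene Ssr3 in CTR 2 and both NPM1 KD libraries, where it was the strongest narrow peak of the Kcnab1 window. Kcnab2 (chr4:152390742-152477871, minus strand) had 54066 and 43430 bp in CTR and 57404 and 48753 bp in NPM1 KD. Kcnip3 had 9415 and 6973 bp in CTR and 10281 and 8707 bp in NPM1 KD. The groups overlapped in both of these genes.

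Kcnq5, a subunit of the M current with a gene of 563540 bp, was marked near its 5′ end. It had 24201, 25918, 24243 and 23683 bp in CTR 1, CTR 2, NPM1 KD 1 and NPM1 KD 2, at most 4.6% of its window, and its groups overlapped. Its annotated starts lay under a peak in 2 libraries and within 1 kb of one in all 4.

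Kcnq1 was marked far from its own starts. Kcnq1 (chr7:143106362-143427042, plus strand) encodes the Kv7 channel of heart and epithelia, and the gene hosts the start of the antisense RNA Kcnq1ot1, known from imprinting. Covered length was 54181 and 54408 bp in CTR and 54209 and 54785 bp in NPM1 KD, and the groups overlapped. The strongest broad peak was 53.6 to 54.8 kb long and began 137 to 138 kb downstream of the Kcnq1 start, and it held the Kcnq1ot1 start in all 4 libraries. The peak lists carry no strand, so marks of Kcnq1 and Kcnq1ot1 transcription over these bases cannot be told apart.

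Kcnj6 also had its strongest peak inside the gene. Kcnj6 (chr16:94748636-94997701, minus strand) had 43531 and 39486 bp in CTR and 43118 and 42010 bp in NPM1 KD. Its strongest broad peak ended 115 kb from the gene start in all 4 libraries, before the annotated internal starts at 141 kb, and no start of another coding gene lay in it. Near its own 5′ starts, peaks ended at 1.8 to 2.3 kb, and they covered no annotated start. Groups overlapped in covered length.

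In the calcium-activated genes Kcnma1 and Kcnn2 the strongest peak stood at an internal start. The strongest broad peak of Kcnma1 (chr14:23289431-24014491, minus strand) began 9.75 to 10.3 kb from the gene start, at a cluster of annotated starts, and ended at 20.8 to 21.6 kb. Kcnma1 had 27525 and 19850 bp covered in CTR and 40738 and 28451 bp in NPM1 KD, between 2.7% and 5.6% of a window of 728061 bp. The start of the non-coding gene 4930519K11Rik lay within the same peak.

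Kcnn2 was marked at annotated starts 291 kb from its 5′ end, with a strongest broad peak that began between 290.0 and 291.0 kb and spanned 4.15 to 6.28 kb. It had 28689 and 22727 bp covered in CTR and 43147 and 40983 bp in NPM1 KD. Kcnn3, which encodes SK3, was marked at its 5′ end with a first domain of 13.2 to 13.8 kb. It had 55843, 50016, 59458 and 39896 bp covered in CTR 1, CTR 2, NPM1 KD 1 and NPM1 KD 2, so that its NPM1 KD libraries held both the highest and the lowest value.

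**Figure D3:**
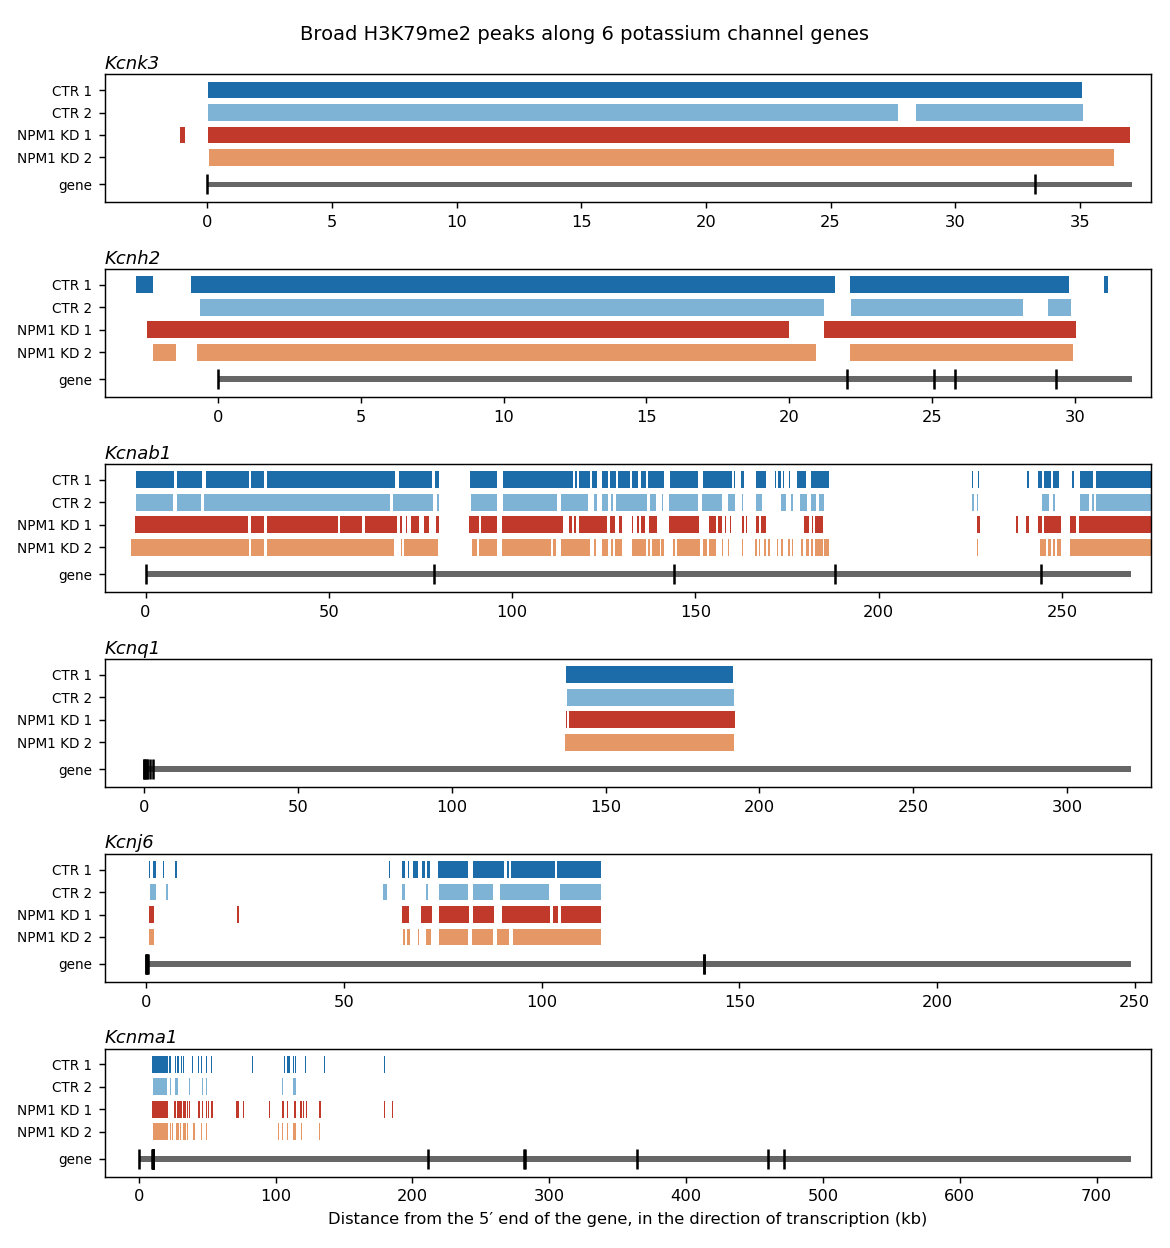
Broad peaks (coloured bars, 1 row per library) along 6 genes, with distance from the 5′ end of the gene in kb on the x axis, the gene as a grey line and its annotated starts as black ticks. Kcnk3 and Kcnh2 are covered nearly throughout and Kcnab1 in many pieces, whereas the strongest peaks of Kcnq1 and Kcnj6 lie away from their annotated starts and that of Kcnma1 begins at an internal start.

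The strongest broad peak of 6 of the 24 genes also held the start of another coding gene in all 4 libraries. Neighbouring starts and shared bases were not counted over all marked genes, so no trait particular to potassium channel genes can be read from them. Kcnu1 was reached by a peak over Ash2l, a subunit of histone H3K4 methyltransferases, whose end lay −2.02 to −1.91 kb from the start of Kcnu1. Its 998, 1091, 976 and 1055 bp in CTR 1, CTR 2, NPM1 KD 1 and NPM1 KD 2 lay in the body of Ash2l for 99.5%. Kcnu1 had the highest percentile of all members (97.0), and that value is the value of the Ash2l peak.

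Kcnj13 lies inside Gigyf2, and 100% of its covered length was shared with that gene. For Kcnab3 the share was 81.7% (Cntrob and Trappc1), for Kcnj14 55.5% (Grwd1), for Kcnk4 31.9% (Catsperz) and for Kcnab2 8.18% (Nphp4). The other 18 marked genes shared no covered base with another coding gene. In Kcnk4, 4540 and 4236 bp were covered in CTR and 4566 and 4414 bp in NPM1 KD, and in Kcnj14 the values were 4753, 4589, 4955 and 4166 bp. Both ranges overlapped between the groups. In NPM1 KD 1 the strongest Kcnk4 peak was 23.3 kb long and also took in Esrra, Prdx5 and Trmt112, against 5.76 to 6.37 kb in the other libraries.

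The next strongest percentiles after Kcnu1 were 93.3 for Kcnj14, whose peak held the Grwd1 start, and 92.6 for Kcnq1, whose peak held the Kcnq1ot1 start. Among the marked genes near an own start whose peak held no other coding gene's start, Kcnab1 had a percentile of 92.5, Kcnh2 of 91.5 and Kcnk3 of 91.1. Kcnk5, which encodes an acid-sensitive leak channel, had the lowest of the 24 genes at 57.2. It had 5803 and 5405 bp covered in CTR and 7474 and 7042 bp in NPM1 KD, with both NPM1 KD values above both CTR values.

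In 5 genes a broad peak was present in some libraries only. Kcnj9 (GIRK3) had 726 and 0 bp in CTR and 1579 and 1331 bp in NPM1 KD. Kcnmb2, a BK beta subunit, had 940, 0, 2158 and 1331 bp, and Kcnk12 (THIK-2) had 294, 0, 435 and 907 bp in the same order. CTR 2, the shallowest library, was the one without a broad peak in all 3 of these genes, and the part of depth in this was not tested. Kcnk12 had narrow peaks in all 4 libraries, CTR 2 included. Kcna7, a Kv1 gene, had 297 bp in CTR 2 and none in CTR 1, with 388 bp in NPM1 KD 1 and none in NPM1 KD 2. Kcnn1 (SK1) had 151 bp in NPM1 KD 1 alone.

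Kcnh6, Kcnip4 and Kcns3 had narrow peaks in all 4 libraries and no broad peak. Kcnh6 had 2593, 2852, 2730 and 2689 bp under narrow peaks, Kcnip4 had 1580, 1268, 1161 and 2253 bp, and Kcns3 had 2122, 1060, 605 and 510 bp in CTR 1, CTR 2, NPM1 KD 1 and NPM1 KD 2. All 33 of these narrow peaks (14, 8 and 11 in the 3 genes) lay in bases that the reference genome marks as repeats for 100% of their length. The peak names of the narrow lists do not carry the word filtered that stands in the names of the broad lists. The part of repeats or read filtering in these calls was not tested.

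Gene starts near H3K79me2 peaks had a higher median CpG ratio than the other starts among potassium channel genes and among all genes. The observed over expected CpG ratio in 1 kb centred on the 5′ end of the gene had a median of 0.672 (range 0.0785 to 1.04) in the 22 genes with a peak within 1 kb of an own start. In the other 69 genes the median was 0.453 (0.0685 to 0.951). For all protein-coding genes the medians were 0.745 with such a peak and 0.25 without. The potassium channel genes without such a peak thus had a higher median ratio than all genes without one, as a description of the reference sequence and with no test. A ratio of at least 0.6 was found in 22 of these 69 genes (31.9%), against 18.9% of all genes without such a peak. Without such a peak, this share was 40.9% of sodium and calcium channel genes and 45.7% of glutamate and GABA receptor genes. Their medians at the 5′ end were 0.445 and 0.559 without such a peak and 0.440 and 0.467 with one. At the marked start, the most 5′ own start within 1 kb of a peak in every library, medians were 0.464 and 0.630. For potassium channel genes the median there was 0.713. The higher ratio near peaks was thus absent from both other lists at the 5′ end, but not at the marked start.

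CpG-rich starts without any peak were found in 21 of the 59 genes with no peak, among them Kcng3 (0.951), Kcnk9 (0.913), Kcnd3 (0.876), Kcna3 (0.838) and Kcnd2 (0.802). The same share over all genes with no peak was not computed. The lowest ratios among genes with a peak within 1 kb, after Kcnma1, were those of Kcnj14 (0.139) and Kcnj13 (0.184), both with a peak over a neighbour, and of Kcnip3 (0.249) and Kcnab1 (0.319). At Kcnma1 the 5′ end had a ratio of 0.0785 and the marked internal start one of 0.779.

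**Figure D4:**
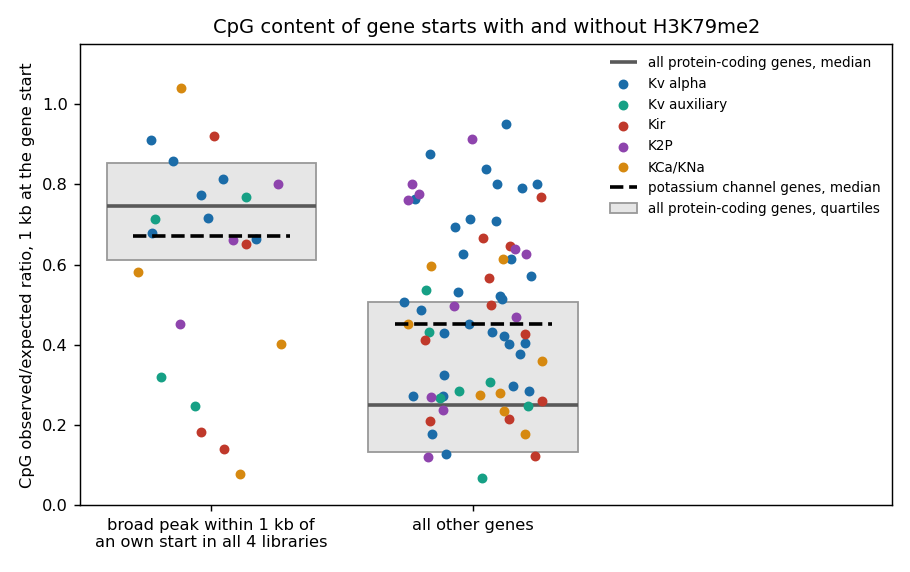
Observed over expected CpG ratio in 1 kb at the 5′ end of each potassium channel gene (points, coloured by class, y axis), for the 22 genes with a broad peak within 1 kb of an own start in all 4 libraries (left) and the other 69 (right). Dashed lines are the medians of these genes (0.672 and 0.453), and grey boxes and lines are the quartiles and medians of all protein-coding genes.

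To show this contrast, the 120 bases directly upstream of the annotated 5′ end are given for 5 genes, from GRCm38 and on the strand of the gene, with each CpG in capitals. Kcnab1 (chr3:65109264-65109383), Kcnh2 (chr5:24351605-24351724) and Kcnk3 (chr5:30588050-30588169) had the percentiles given before and were marked at an own start with no other coding start in the peak. Kcng3 (chr17:83631896-83632015) and Kcne3 (chr7:100176382-100176501) had the highest and the lowest CpG ratio among genes with no peak.
Kcnab1: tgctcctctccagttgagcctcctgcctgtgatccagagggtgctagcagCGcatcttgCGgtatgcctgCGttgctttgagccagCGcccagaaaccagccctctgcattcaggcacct
Kcnh2: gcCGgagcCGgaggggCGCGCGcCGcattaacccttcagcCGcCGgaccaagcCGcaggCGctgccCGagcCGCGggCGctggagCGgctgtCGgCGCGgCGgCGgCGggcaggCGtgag
Kcnk3: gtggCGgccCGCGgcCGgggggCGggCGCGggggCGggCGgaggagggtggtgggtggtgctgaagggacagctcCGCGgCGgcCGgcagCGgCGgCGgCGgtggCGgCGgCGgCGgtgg
Kcng3: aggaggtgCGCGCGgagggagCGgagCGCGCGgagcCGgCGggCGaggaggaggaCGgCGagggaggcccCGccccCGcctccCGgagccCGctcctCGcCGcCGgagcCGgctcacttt
Kcne3: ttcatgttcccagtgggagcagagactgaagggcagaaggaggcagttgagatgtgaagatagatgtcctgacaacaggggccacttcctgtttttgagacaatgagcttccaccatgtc

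The runs hold 4 CpG in marked Kcnab1, 22 in marked Kcnh2 and 21 in marked Kcnk3, against 20 in unmarked Kcng3 and 0 in unmarked Kcne3. Starts dense in CpG were thus present both at genes covered over more than 80% of their window and at a gene with no peak. GC content was 80.8% for both Kcnh2 and Kcng3, 86.7% for Kcnk3, 60% for Kcnab1 and 50% for Kcne3.

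REST is a repressor that keeps many neuronal genes silent in other cells, and its binding element RE1 was searched as CAGCACC, any 2 bases and GGACAG on both strands. A match lay within 2 kb of the 5′ end of 3 of the 91 genes (3.30%), against 0.409% of all protein-coding genes (85 of 20807). The share was higher in sodium and calcium channel genes (3 of 39, 7.69%) and in glutamate and GABA receptor genes (2 of 44, 4.55%). Each of the 3 matches at potassium channel genes is shown because these genes fell into different classes of marking. The searched letters are in capitals and on the strand of the motif. Kcnt1 (chr2:25864076-25864090, 342 bp inside the gene) had no peak, Kcnh4 (chr11:100759011-100759025, 917 bp inside the gene) was marked, and Kcnk12 (chr17:87798586-87798600, at −606 bp) had a broad peak in 3 libraries.
Kcnt1: CAGCACCgcGGACAG
Kcnh4: CAGCACCctGGACAG
Kcnk12: CAGCACCgcGGACAG

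A match of letters is not a binding site. Kcnh4 had 2797 and 2269 bp under broad peaks in CTR and 3709 and 2954 bp in NPM1 KD, with both NPM1 KD values above both CTR values. Its peaks were under a −log10 q of 5 in at least 1 library.

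Knockdown of Npm1 was compared with CTR by the length of each gene window under broad peaks. No gene passed limma on log2(covered bp + 1000): 0 of 10998 genes with a mean of at least 500 bp had an adjusted p under 0.05 (0% of all, Benjamini-Hochberg), and none of the 26 potassium channel genes fitted did. These 26 of 91 genes were the 24 marked genes with Kcnj9 and Kcnmb2. The CTR means of Kcnj9 and Kcnmb2 were under 500 bp, so both reached the minimum only through NPM1 KD. At an unadjusted p under 0.05 there were 1868 genes (17.0%), of which 1832 were longer in NPM1 KD, and 6 of the 26 potassium channel genes, all longer in NPM1 KD. These were Kcnmb4, Kcnj13, Kcnk5, Kcnn2, Kcnc1 and Kcnk3, with adjusted p between 0.223 and 0.28 by limma. Kcnmb4, the neuronal beta subunit of BK channels, had the lowest adjusted p, with 9148 and 8381 bp in CTR and 11312 and 11552 bp in NPM1 KD. The median log2 change was 0.12 over the 26 genes and 0.08 over all genes fitted, so lists were longer in NPM1 KD in general. The 0.12 includes Kcnj9 and Kcnmb2, whose log2 changes (0.90 and 0.96) were the largest of the 26. The median without them was not computed. These values are called lengths, and read counts were not analysed here. The shallowest library, CTR 2, was a CTR library, and the part of depth in the longer NPM1 KD lists was not tested.

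Covered length did not overlap between the groups, with NPM1 KD longer, in 15 of the 26 genes (57.7%), against 48.4% of all genes fitted. Kcnj9 and Kcnmb2 were among the 15. Both had no broad peak in CTR 2, and their CTR means were under the minimum of 500 bp. They reached it only through the NPM1 KD libraries, in which they were longer. Their place in this count thus follows in part from the filter, and the share without them was not computed. Covered length did not overlap with NPM1 KD shorter in 1 gene, Kcnab1 (3.85%, against 2.70%). With a −log10 q of at least 5 the first count was 8 of 23 (34.8%), against 37.4% of all genes. In the narrow lists the counts were 11 of 28 (39.3%, against 44.2%) and 2 of 28 (7.14%, against 3.36%), the 2 being Kcns3 and Kcnu1. The shares of these genes were not tested against those of all genes. With 2 libraries against 2, the exact permutation test (two-sided) of a single gene cannot give a p under 0.33, which is the p of each of these genes.

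Longer in both NPM1 KD libraries in both kinds of list were 10 of 24 potassium channel genes (41.7%), against 33.3% of all genes, and 0 were shorter in both, against 0.880% of all genes. Among the 10 were Kcnab3, Kcnc1, Kcnh4, Kcnj13, Kcnk3, Kcnk5, Kcnma1 and Kcnn2. The difference in mean broad covered length was largest in Kcnn2, with 25708 ± 4216 bp (SD, n = 2) in CTR and 42065 ± 1530 bp in NPM1 KD. Kcnma1 followed, with 23688 ± 5427 bp in CTR against 34595 ± 8688 bp (SD, n = 2 each) after knockdown. The differences were 16357 bp in Kcnn2 and 10907 bp in Kcnma1. Each SD rests on 2 libraries and is not the error of a difference. When peaks under a −log10 q of 5 were left out, the difference was 901.5 bp in Kcnn2 and turned to -30 bp in Kcnma1. In Kcnma1 it was 4763.5 bp without NPM1 KD 1, 17050.5 bp without NPM1 KD 2 and 7069.5 bp without CTR 2. Kcnn2 had an adjusted p of 0.236 and Kcnma1 one of 0.435 by limma.

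Kcnc1 had 12391 and 10054 bp in CTR and 21798 and 17077 bp in NPM1 KD, a log2 change of 0.74 ± 0.18 (SE; limma adjusted p = 0.256). Kcnj13 had 5141, 6158, 9008 and 9208 bp in the same order, a log2 change of 0.61 ± 0.09 (limma adjusted p = 0.230). With a −log10 q of at least 5 the difference in means fell from 8215 to 2612.5 bp in Kcnc1 and from 3458.5 to 2032.5 bp in Kcnj13. All of the Kcnj13 length lay in its host Gigyf2. The NPM1 KD values of both genes lay above the CTR values, and neither passed the test.

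**Figure D5:**
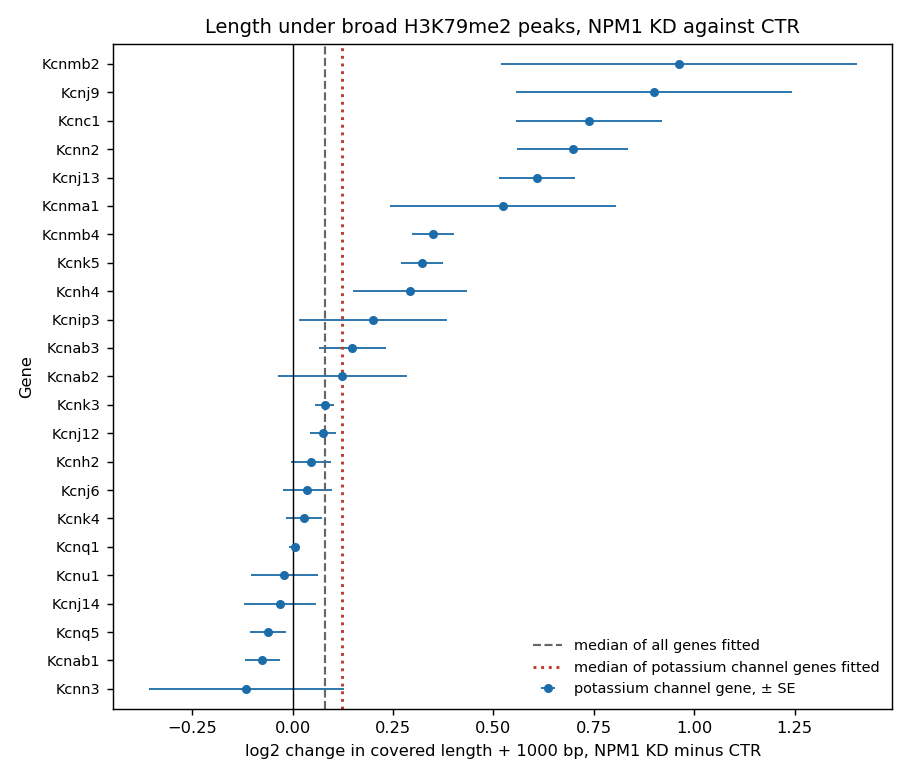
Log2 change of covered length + 1000 bp, NPM1 KD minus CTR (x axis), with the limma SE for 23 of the 26 potassium channel genes fitted (y axis). The dashed and dotted lines are the medians of all genes (0.08) and of the 26 genes (0.12), and none of the 26 passed the threshold.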

How the data were processed

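Each library had 1 narrow and 1 broad MACS2 peak list. Per the methods and the labels, the authors aligned paired-end reads of 51 bp to mm10 (GRCm38) with Bowtie2, removed reads of low mapping quality and called peaks per library; the submitters' processing notes name Bowtie2 2.3.4.1 and MACS2 2.2.6. The deposited values of a peak are a score, a fold (the ratio of pileup to background), and −log10 p and −log10 q. The fold and −log10 p of narrow peaks were solved for the background pileup, after a test on simulated peaks. Total reads per library are unknown.

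Covered length was the number of bases of a gene body plus 3 kb upstream under peaks. Limma 3.58.1 (R 4.3.3, eBayes with trend) was fitted on log2(covered bp + 1000) over all protein-coding genes with a mean of at least 500 bp, without covariates, with Benjamini-Hochberg adjustment at 0.05, after a test on simulated data. Intervals were computed with Python 3.11.15, numpy 2.4.6 and pandas 2.3.3, sequences were read with pysam 0.24.0, and figures were drawn with matplotlib 3.10.9. The methods tie a replicate number to a passage and transfection batch. Whether CTR 1 and NPM1 KD 1 shared one is not stated. Between libraries sharing a number, departures from the group mean correlated at 0.292 across 10998 genes and 0.595 across 26 potassium channel genes. As no source says that the numbers pair the libraries, the block was kept as an alternative.

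The members and lists were chosen with earlier results of these data known. Values in every library were to be given for the 3 genes per class with the longest mean covered length, genes with a broad peak in some libraries, the 4 per direction with the largest difference among those not overlapping in both lists, genes past limma, and the 3 highest percentiles. Other genes named with values (Kcnq5, Kcnh4, Kcnmb4 and the genes with narrow peaks only) were added after their values were seen. A few genes that the rules would name are not reported here, and they stay in the counts and medians. Alternatives were narrow lists, a −log10 q of at least 5, other overlaps and starts, a pseudocount of 200 bp, no filter, a replicate block and leaving out each library.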

Additional observations from a re-analysis of the deposited data

How the results depend on the processing

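The count of marked potassium channel genes (24) was 28 in narrow lists, 19 with a −log10 q of at least 5, 24 with 500 bp covered, 22 without the upstream 3 kb and 24 to 27 without 1 library. Narrow lists held all 24. Those lost without the upstream 3 kb were Kcnab3 and Kcnu1. Those lost at a −log10 q of 5 were Kcnh4, Kcnip3, Kcnj13, Kcnk5 and Kcnq5. The count over an own start (14) was 5 at the 5′ end of the gene alone and 22 within 1 kb, and 14 to 15 without 1 library. Of these alternatives, shares of all genes were computed for narrow lists (52.8%) and within 1 kb (49.4%) only. Whether the other shifts are particular to potassium channel genes therefore cannot be told. Limma called 0 genes except without the filter, where 3 genes passed, none a potassium channel gene, and the median log2 change over all 91 potassium channel genes was 0. With the replicate block the median was 0.12 and 0 genes passed. At an unadjusted p under 0.05 by limma there were then 13 of the 26 potassium channel genes in place of 6. Of all 10998 genes fitted, 2617 (23.8%) were under it in place of 1868 (17.0%). The median was 0.20 without CTR 1, 0.07 without CTR 2, 0.07 without NPM1 KD 1 and 0.19 without NPM1 KD 2. Without 1 library, the lone library of a group was assumed to vary like the other group. Genes not overlapping with NPM1 KD longer were 15 of 26, with Kcnj9 and Kcnmb2 among them (57.7%, against 48.4% of all genes). This count was 8 of 23 with a −log10 q of at least 5 (34.8%, against 37.4%), and 16 to 21 without 1 library. Those shorter (1) were 2 in narrow lists, 0 with a −log10 q of at least 5 and, leaving out 1 library, 3 without CTR 1, 2 without CTR 2, 4 without NPM1 KD 1 and 2 without NPM1 KD 2. Leaving out libraries was added for these counts after seeing the data. With 1 library against 2, groups fail to overlap more easily than with 2 against 2. The same counts over all genes were not computed, so the counts without 1 library show no stability of the pattern. Of the 23 genes whose difference in mean covered length was followed, 11 moved by more than 1 SD between replicates in narrow lists and 12 with a −log10 q of at least 5. With that minimum the sign turned in Kcnma1 (-30 bp), Kcnip3 (-2083 bp), Kcnn3 (2529 bp) and Kcnq1 (-100.5 bp). Depth limits short peaks, and a gene with no peak may carry the mark below the calling threshold.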
